A study of Mus musculus with 19 samples.

Results

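The regions described here were the 100 kb windows of the mouse genome that stayed most methylated in yolk sac endoderm (ysE), the extra-embryonic epithelium that lines the visceral yolk sac (VYS). A window, starting at a multiple of 100 kb, was a member when each of 6 whole genome bisulfite sequencing (WGBS) libraries held at least 200 reads at CpGs in it and the mean of both E12.5 ysE libraries reached 75% methylated reads. Of 13526 windows with that coverage, 2429 were members and 11097 were not. The members were thus chosen by their ysE levels, which are given as a description only, whereas the liver, cystic EB, sequence and RNA values were not used by the rule.

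DNA methylation is the addition of a methyl group to cytosine, in mammals mostly where a G follows (CpG). It covers most of the genome of embryonic tissues, leaves CpG-rich gene starts free, and is laid down inside transcribed genes, while placenta and yolk sac are known for lower genome-wide levels and for broad domains of partial methylation. A window that kept a high level in ysE is therefore described by what it holds and by what its genes did.

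WGBS was done on ysE and fetal liver at E12.5 and on cystic embryoid bodies (EBs, cysts that ES cells form in suspension) at day 15, with 1 library from each of the reciprocal crosses of CAST and FVB (CxF and FxC). The EB libraries were the ES clones CF clone C2 and FC clone A2 (CF-C2 and FC-A2 in the study's methods, both XY), 1 clone per cross. RNA-seq covered FVB E12.5 ysE (1 library), FVB E9.25 ysE and E9.25 VYS mesoderm (2 each), FVB E12.5 liver (2), and EBs at days 10 and 15 from ES clone A9 (A, XY) and from a Bl6/129 clone (B, XX; JN in the study's methods), both of C57Bl/6x129 background. The 2 assays thus differed in strain, tissue libraries were whole pooled litters, and the E12.5 ysE, liver and E9.25 RNA libraries were each made by another protocol, so that among these tissues tissue and protocol cannot be told apart except between E9.25 ysE and mesoderm. The EB A libraries shared the protocol of liver, and the EB B libraries that of E9.25. H3K4me3, the histone mark of active gene starts, was read as peaks in whole E12.5 VYS of FVB mice, which holds mesoderm and blood as well.

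Afp and Alb differed between the tissues as their labels say, but the hepatic list as a whole did not set liver apart from ysE. Afp, the fetal serum protein of yolk sac endoderm, was at 35558 RPKM (reads scaled to transcript length and library size) in E12.5 ysE and at 1396 and 2471 in liver, and Alb, the liver serum protein, was at 80.5 RPKM in ysE against 358 and 767 in liver. The median of the 14 hepatic genes was 30.5 RPKM in E12.5 ysE and 12.65 and 21.0 in liver. Depth ran from 6695942 to 11554658 reads at CpGs per WGBS library, with a median of 1 read per call, and from 40453779 to 169981821 counts per RNA library. A member window held a median of 456 (ysE FxC) to 728 (liver FxC) reads, which gave single-library levels a median 95% Wilson half-width of 2.49 to 3.90 percentage points. On 3 chromosomes 1 library stood over 5 points from its own median chromosome: ysE CxF read 53.3% on chromosome 4 against a median of 69.5%, ysE FxC 52.5% on chromosome 3 against 60.5%, and liver CxF 88.4% on chromosome 6 against 77.2%. Members made up 3.23% of covered windows on chromosome 4, 10.98% on chromosome 3 and 37.5% on chromosome 6, and 14.2% to 23.3% on the others. Without these chromosomes 2200 of 11214 windows were members, and counts of called members are given both ways.

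The sequences below show what gene starts in member windows looked like, from RefSeq tables of build GRCm38.p6 (250 bases before to 50 after the start, 5′ to 3′ on the gene's strand), with each CpG in capitals. They were chosen after their values were seen: Adk and Lrp2 for a CpG-rich start under an H3K4me3 peak, Igf2r for a CpG-rich start with methylated reads, Ahsg for a CpG-poor start under a peak, and Pard3 for an internal start without a peak.
Adk, chr14:21052324-21052623, plus strand: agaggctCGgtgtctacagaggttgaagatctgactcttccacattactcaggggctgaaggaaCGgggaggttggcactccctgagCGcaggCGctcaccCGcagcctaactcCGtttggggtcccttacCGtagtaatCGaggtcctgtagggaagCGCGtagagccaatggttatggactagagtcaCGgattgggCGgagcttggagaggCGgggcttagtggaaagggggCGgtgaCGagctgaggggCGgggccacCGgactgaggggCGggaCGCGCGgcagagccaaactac
Lrp2, chr2:69585980-69586279, minus strand: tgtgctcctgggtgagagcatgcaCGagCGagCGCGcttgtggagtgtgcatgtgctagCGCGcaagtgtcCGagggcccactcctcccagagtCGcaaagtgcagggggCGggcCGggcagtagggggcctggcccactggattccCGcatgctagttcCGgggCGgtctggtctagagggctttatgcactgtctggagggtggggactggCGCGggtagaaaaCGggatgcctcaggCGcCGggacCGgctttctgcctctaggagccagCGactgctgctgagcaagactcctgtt
Igf2r, chr17:12769657-12769956, minus strand: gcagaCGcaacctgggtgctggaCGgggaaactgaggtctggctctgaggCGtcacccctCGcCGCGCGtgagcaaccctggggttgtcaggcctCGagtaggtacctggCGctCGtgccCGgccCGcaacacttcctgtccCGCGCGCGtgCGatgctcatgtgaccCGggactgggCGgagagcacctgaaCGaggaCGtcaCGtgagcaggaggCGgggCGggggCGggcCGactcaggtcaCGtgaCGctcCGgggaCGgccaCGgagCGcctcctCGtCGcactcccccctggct
Ahsg, chr16:22891765-22892064, plus strand: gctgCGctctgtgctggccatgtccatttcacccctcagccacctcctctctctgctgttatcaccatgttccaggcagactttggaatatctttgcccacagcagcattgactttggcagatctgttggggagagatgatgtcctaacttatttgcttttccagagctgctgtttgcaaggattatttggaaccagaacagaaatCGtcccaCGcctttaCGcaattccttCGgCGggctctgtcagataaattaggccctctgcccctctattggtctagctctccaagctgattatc
Pard3, chr8:127299362-127299661, plus strand: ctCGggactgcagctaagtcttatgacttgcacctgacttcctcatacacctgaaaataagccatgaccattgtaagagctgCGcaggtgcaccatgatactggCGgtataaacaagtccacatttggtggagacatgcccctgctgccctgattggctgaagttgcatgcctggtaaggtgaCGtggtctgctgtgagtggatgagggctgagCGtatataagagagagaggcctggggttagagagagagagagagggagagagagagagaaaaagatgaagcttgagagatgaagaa

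Adk, which encodes adenosine kinase, held 21 CpGs in these 300 bases, Lrp2, the endocytic receptor megalin, 20, and Igf2r, the imprinted receptor for Igf2, 34. Ahsg, a serum protein of liver, held 6, and the internal Pard3 start 5. The Adk start, which lies head to head with Ap3m1, was at 22.2% of 9 reads in ysE CxF, at 100% of 8 and 66.7% of 12 in liver, and at 100% of 16 and 10% of 10 in EBs, so that its 2 EB libraries did not resemble each other. Within 500 bases of the Lrp2 start 9.09% of 11 reads were methylated in ysE CxF, 23.1% of 13 in liver FxC and 0% of 9 in EB CxF. The Igf2r start, also under a peak, was at 100% of 18 and 50% of 8 reads in ysE CxF and FxC and at 77.8% of 9 in liver CxF. The Ahsg start was at 50% of 14 and 30% of 10 reads in ysE, at 87.5% of 8 and 94.4% of 18 in liver, and at 100% of 12 in each EB library. The Pard3 start without a peak was at 66.7% of 15 and 88.9% of 18 reads in ysE and at 100% of 10 and 69.6% of 23 in liver. Each of these values rests on 8 to 23 reads, and sums over all starts are given further on.

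Member windows were above the other covered windows in all 6 libraries, by the rule in ysE, by several points in liver and by about 1 point in EBs. The median member was at 80.8% (CxF) and 75.65% (FxC) in ysE, at 82.3% and 84.2% in liver and at 88.2% and 84.1% in EBs. The other covered windows were at 68.1% and 61.1% in ysE, at 77.1% and 79.6% in liver and at 87.5% and 83.1% in EBs. As means of the 2 libraries' medians, members were at 83.25% ± 1.33 (SD, n = 2) in liver and 86.15% ± 2.84 in EBs, and all covered windows at 79.2% ± 1.65 and 85.5% ± 3.02. With 2 libraries a tissue no permutation test can pass 5%. Without chromosomes 3, 4 and 6 the members' medians of the tissue means were 82.99% in liver and 85.95% in EBs, against 83.22% and 86.05% with them.

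**Figure D1:**
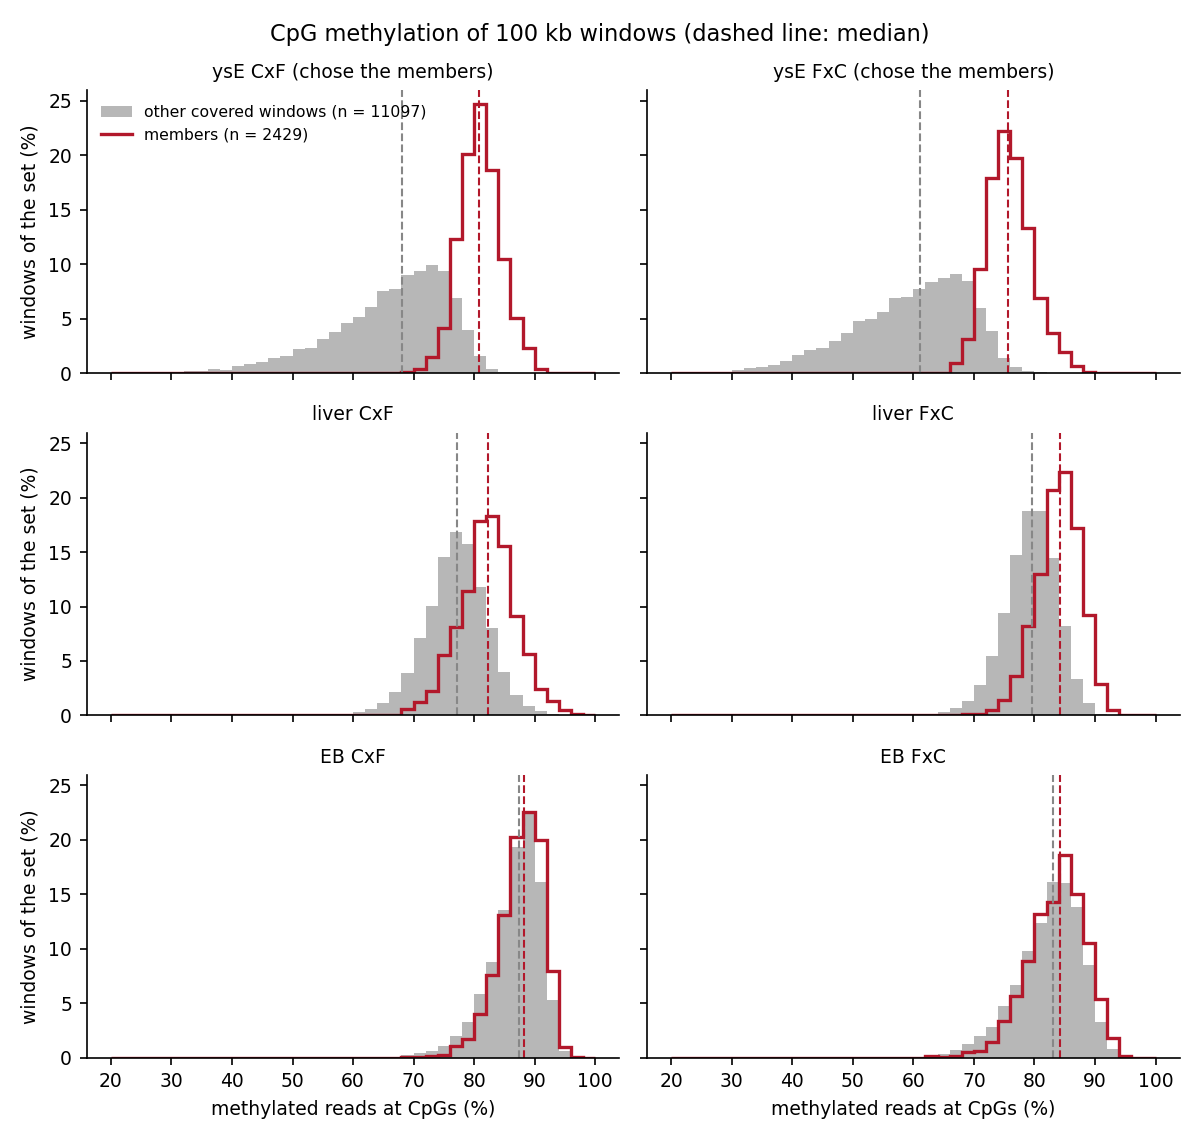
Distribution of CpG methylation over 100 kb windows in each WGBS library, as the share of member windows (red line) and of other covered windows (grey) in bins of 2 percentage points, with medians dashed. Members and other windows are set apart in ysE by the rule, overlap widely in liver (medians 82.3% against 77.1% in CxF) and almost coincide in EBs (88.2% against 87.5% in CxF).

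The libraries that chose the windows did not weigh alike. In 1321 members (54.4%) both ysE libraries reached 75%, in 1023 (42.1%) CxF alone did and in 85 (3.50%) FxC alone. Read in the library that a choice had not used, the 4297 windows at 75% or more in CxF had a median of 72.0% in FxC, where all covered windows had 63.8%, and the 1552 windows chosen in FxC had a median of 80.6% in CxF, against 70.5%. Of these, 88.3% and 94.1% lay above the respective genome median, and 1321 windows reached 75% in both. The members nearest to the threshold were chr2:157700001-157800000 at a ysE mean of 75.0013%, chr16:87400001-87500000 at 75.0015% and chr10:21600001-21700000 at 75.0033%. Nearest below it were chr4:139200001-139300000 at 74.9992%, chr18:3400001-3500000 at 74.9941% and chr7:117400001-117500000 at 74.992%, so windows on either side of the threshold differed by less than the counting error.

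Liver was higher than ysE by a median of 4.67 points over members and of 12.1 points over all covered windows. In members the difference was 1.01 points within the CxF cross and 7.99 within FxC. In 51.2% of members the lower liver value exceeded the higher ysE value, and the reverse held in 34 windows (1.4%), against 81.4% and 0.288% of all covered windows. EBs were above ysE by 7.38 points over members, against 17.6 over all covered windows. The rule chose members for a high ysE level, so smaller gaps to ysE over members follow from it and are a description only.

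Between EBs and liver, neither of which chose the windows, the members differed little. The EB mean was higher by a median of 2.58 points over members and 5.98 over all covered windows. Within the CxF cross the members' difference was 5.50 points, and within FxC it was -0.154, so that in FxC EBs were above liver in 48.9% of members only. An edgeR quasi-likelihood test on methylated and unmethylated reads called 111 members (4.57%) higher in EBs at an FDR of 5%, where 13.1% of all covered windows were called. It called 3 members lower in EBs, and these were the only windows so called among all 13526 (0.0222%). With the cross as a further term edgeR called no member (163 at an unadjusted p under 0.05) and 0.0148% of all covered windows. Without liver CxF (58 members at an unadjusted p under 0.05) or without liver FxC (151) edgeR called none of the 13526 windows, in fits where the lone liver library is assumed to vary like EBs. Without EB CxF it called 40 members (1.65%, against 3.22% of all windows), and without EB FxC 517 (21.3% against 43.4%). With all 4 libraries limma called 113 (4.65%, against 16.85% of all windows). Of 2200 members off chromosomes 3, 4 and 6, the main edgeR fit called 104 (4.73%), 102 higher and 2 lower. The share of all windows it called, 13.2%, includes these chromosomes.

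The 3 windows lower in EBs held broadly expressed genes. The window chr2:69900001-70000000, inside Ubr3, a ubiquitin ligase gene, was at 69.7% and 69.4% in EBs (CxF, FxC), at 91.5% and 87.1% in liver and at 81.9% and 86.3% in ysE (log2 odds ratio -1.87 ± 0.42 (SE), edgeR adjusted p = 0.00388). It was thus the one of the 3 where both EB libraries lay below 70%. The window chr2:165800001-165900000 in Zmynd8, which encodes a chromatin reader, was at 72.2% and 63.6% in EBs and at 87.2% and 81.2% in liver (-1.32 ± 0.41, edgeR adjusted p = 0.0251). The window chr6:125100001-125200000 with Chd4, Nop2, Mrpl51, Ncapd2 and Iffo1 was at 77.2% and 76.8% in EBs and at 89.2% and 87.5% in liver (-1.16 ± 0.42, edgeR adjusted p = 0.0466). The last lies on chromosome 6, where liver CxF was high throughout, and held 240 reads of that library. With the cross as a further term the edgeR adjusted p of the 3 windows was 0.111, 0.183 and 0.226. None passed when either liver library was left out, where no covered window did, while their log2 odds ratios then ran from -1.02 to -2.23. Without EB CxF the last window did not pass either (edgeR adjusted p = 0.0796).

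Of the 5 members with the largest odds ratios among those called higher in EBs, 4 overlapped a long gene. The window chr5:51400001-51500000, at one end of Ppargc1a, which encodes a coactivator of mitochondrial genes, was at 92.8% and 94.0% in EBs and at 78.3% and 78.8% in liver (log2 odds ratio 1.94 ± 0.44, edgeR adjusted p = 0.00396). A window of Pard3, a cell polarity gene, at chr8:127300001-127400000 was at 94.0% and 90.5% in EBs and at 74.4% and 81.7% in liver (1.76 ± 0.42, edgeR adjusted p = 0.00622). The others were chr5:62600001-62700000 in Arap2, chr16:24800001-24900000 in Lpp and chr12:109600001-109700000, which overlaps the imprinted genes Rian and Rtl1. In all 5 both EB libraries lay above both liver libraries. None of them passed with the cross as a further term or without either liver library.

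Members often lay side by side. Of the 2429 windows, 1358 (55.9%) stood in runs of at least 2 neighbours and 1071 stood alone. With these lone windows counted as runs there were 1590 runs, of 700 kb at most. The next covered neighbour of a member was a member in 37.5% of cases, and that of another window in 14.8%. Neighbours can share a gene and are not independent.

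Both runs of 7 windows and the 3 highest in ysE of the 9 runs of 6 windows are described here. A run of 7 windows at chr14:21000001-21700000 spanned Adk, Vcl, Ap3m1, Myst4 and Dupd1, and its mean was 83.5% and 78.3% in ysE. Liver read 83.9% and 87.6% over this run, and EBs 88.9% and 81.0%. Adk was at 58.8 RPKM in E12.5 ysE and 25.8 and 33.9 in liver. The second run of 7, at chr1:58300001-59000000, held many smaller genes, among them Orc2 of the origin recognition complex, Clk1, Bzw1, Ndufb3, Ppil3 and Trak2, with 80.4% and 73.4% in ysE and 80.4% and 82.2% in liver. A run of 6 windows at chr16:24400001-25000000 lay in the body of Lpp, an adhesion gene of 599 kb, with ysE at 83.7% and 81.2%, liver at 81.7% and 82.6% and EBs at 90.4% and 89.2%. Lpp was at 2.94 RPKM in E12.5 ysE and 3.80 and 2.97 in liver. The runs at chr6:98900001-99500000 and chr17:30000001-30600000 lay in Foxp1, a forkhead factor, and over Glo1, Zfand3 and Btbd9. In the Foxp1 run liver CxF read 93.7% and liver FxC 83.4%, on chromosome 6 again.

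Each of the 5 highest windows in ysE overlapped a gene, the last of them only the end of Uchl5. The highest, chr1:60200001-60300000 in Nbeal1, was at 89.2% of 360 and 87.1% of 450 reads in ysE, at 80.8% and 84.1% in liver and at 87.8% and 89.1% in EBs. The next were chr1:87900001-88000000 (Dgkd and Usp40), chr6:28500001-28600000 (Snd1, a nuclease subunit of the silencing complex), chr5:144800001-144900000 (Trrap and Smurf1) and chr1:143800001-143900000 (Uchl5), with ysE means of 87.9%, 87.9%, 87.5% and 87.3%. The Uchl5 window was unusually deep, with 2262 and 2300 reads in liver (CxF, FxC), the most of any member, against medians of 592 and 728. Over the 5 windows liver means ran from 82.5% to 90.6% and EB means from 88.4% to 90.3%, so all 5 were high in liver and EBs too. They were ranked on these ysE values, so their ysE levels are a description.

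The members lowest in liver sat between 64.5% and 72.0% there. The lowest, chr17:21900001-22000000 with the zinc finger genes Zfp942 and Zfp943 and 2210404O09Rik, was at 52.4% of 248 reads in liver CxF and 76.7% of 433 in FxC, at 82.4% and 73.5% in ysE and at 82.2% and 77.5% in EBs. The next were a window of Greb1l at chr18:10400001-10500000, at 68.4% and 69.8% in liver against 79.4% and 74.7% in ysE, and a window of Dnahc11, an axonemal dynein gene, at chr12:118100001-118200000, at 68.7% and 72.7% in liver against 78.1% and 72.8% in ysE. In both windows each liver library lay below each ysE library, in the Dnahc11 window by less than the counting error for FxC. These windows were picked as lowest in liver among windows chosen for high ysE, so this order is a description. Greb1l was at 4.01 RPKM in E12.5 ysE and at 0.861 and 1.26 in liver, with a log2 fold change of 1.957 ± 0.43 in E12.5 ysE over liver (edgeR adjusted p = 0.00488).

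Among the members lowest in EBs, the window chr14:54600001-54700000 with Psmb5, a proteasome subunit, and Acin1 was at 71.9% and 62.7% in EBs, 77.5% and 79.8% in liver and 76.2% and 74.4% in ysE. A window with Usp7, a deubiquitinase, at chr16:8700001-8800000 was at 80.6% and 62.9% in EBs and at 80.8% and 78.6% in liver, so that EB CxF was close to liver and the low EB mean came from FxC.

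Members lay mostly in genes. Gene bodies covered a median of 83.5% of a member, 55.5% of a covered window and 46.6% of a window that was no member. Of the members, 604 (24.9%) lay wholly in genes, against 14.6% of the others, and 154 members (6.34%) held no gene base, against 23.9%. The share of windows that were members rose with the bases in genes, from 5.95% of those under 25% through 11.1% and 19.5% to 30.8% of those at 75% or more. The mean number of genes with their midpoint in the window was 1.31 for members and 1.15 for other windows. Member genes were long, with a median of 40.2 kb for 2791 protein-coding genes, against 17.7 kb for the 11103 in other windows. H3K4me3 peaks of VYS were present in 63.9% of members and 51.55% of other windows. More distinct CpGs were read in members, at a median of 713 against 622. Members also held more reads in each library, as in ysE CxF with a median of 685 against 522 over all covered windows.

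Repeats outside genes, the only ones in the deposited table (3.74% of its repeat bases overlapped RefSeq genes), covered less of a member. LINE elements outside genes covered a median of 1035 bases of a member and 5267 of another window, LTR elements 2264 and 7309, and SINE elements 2314 and 4328. As a share of the bases outside genes, LINEs held 14.2% in members and 17.85% in others, SINEs 12.75% and 9.68%, and LTRs 19.4% and 15.3%. Thus per base outside genes only LINEs of these 3 classes were scarcer in members. Young L1Md LINEs held 3.43% and 5.52% of those bases, and IAPEz elements, endogenous retroviruses that stay methylated in most cells, 1.37% and 0.691%. Per window IAPEz elements covered a mean of 366.8 bases in members and 369.5 in others, and they stood in 7.33% and 8.345% of these windows. Other repeats inside genes were not counted.

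Outside H3K4me3 peaks, each kind of sequence was above 59% in ysE in members. In gene bodies away from peaks and starts, members were at 83.0% and 78.2% in ysE (CxF, FxC), and other windows at 70.9% and 64.7%. In liver the same bases were at 83.9% and 85.8% in members and 79.5% and 81.9% in others, and in EBs at 89.0% and 84.9% against 88.0% and 83.7%. Outside genes and repeats, members were at 77.1% and 71.7% in ysE, against 64.4% and 57.9%. The ysE values follow from the rule. In liver the member excess was 4.14 points in gene bodies and 2.55 outside genes and repeats, and in EBs 1.11 and -0.265.

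Methylation was low in all 6 libraries at bases within 500 of a gene start and inside an H3K4me3 peak. In members it was 21.0% and 22.1% in ysE; liver had 23.6% and 28.0% there, and EBs 30.9% and 27.8%. Bases within 500 of a start and outside peaks, flanks of starts in a peak included, were at 75.7% and 69.3% in ysE in members. In other windows they were at 60.4% and 56.0%, a gap that follows from the rule. In liver, which chose no window, these bases outside peaks were at 75.6% and 80% in members and at 69.6% and 72.45% in others. The excess was 6.77 points in liver and 1.93 points in EBs. Counted by the start position, 53.4% of 3748 annotated starts in members lay in a peak, against 44.0% of 18815 in other windows. Starts in a peak held a median of 23 CpGs in their 300 bases in members and 21 in others, and starts without one 4 in both. At least 10 CpGs were held by 88.2% of marked and 15.9% of unmarked starts in members, as the Adk and Pard3 sequences show, and by 86.9% and 17.9% of all covered starts, so these shares were near those of the genome.

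LTR elements were the repeat class with the largest member excess in liver, 4.55 points, beside rare satellite sequence at 4.30. LTRs in members were at 85.3% and 87.0% in liver and 80.3% and 82.9% in other windows. IAPEz elements were at 89.9% and 87.7% in ysE inside members and at 84.9% and 84.1% outside them, a gap set by the rule, and their member excess was 1.55 points in liver and 0.596 in EBs. L1Md elements were lower, at 68.4% and 59.6% in ysE in members, 74.5% and 76.6% in liver and 82.8% and 79.7% in EBs. SINEs in EBs were at 76.7% and 68.4% in members and 77.6% and 69.7% in others, so for SINEs the members were not above the rest in EBs.

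**Figure D2:**
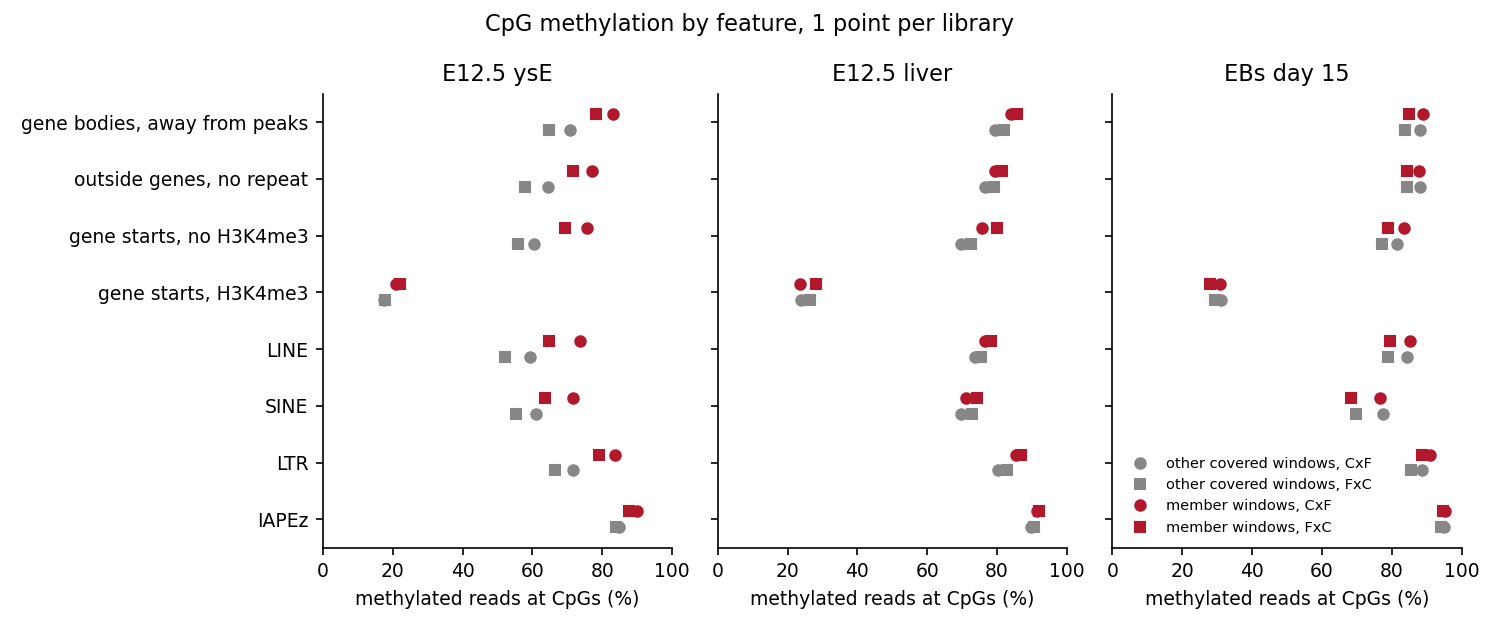
CpG methylation by kind of sequence in member windows (red) and other covered windows (grey), 1 point per library (circles CxF, squares FxC), in ysE, liver and EBs. Gene starts under a peak lie between 17.4% and 31.0%, and the gap between red and grey, fixed by the rule in ysE, narrows in liver for each kind plotted. In EBs it is under 2 points on average for each kind plotted except LTRs (2.67). Members are lower there for SINEs (-1.08), start bases inside a peak (-0.893) and sequence outside genes and repeats (-0.265).

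Member genes were mostly expressed, in every tissue. Of the 2791 protein-coding member genes, 79.5% reached 1 RPKM in the E12.5 ysE library. The E9.25 libraries had 78.0% and 79.0% (ysE) and 80.8% and 81.4% (mesoderm) of them at that level, liver 78.8% and 79.0%, and the 4 EB libraries 81.1% to 82.05%. Of the 11103 genes in other windows, 50.5% did so in E12.5 ysE, 53.3% and 52.8% in liver and 56.5% to 58.0% in EBs. The median level was 5.92 RPKM for member genes and 1.06 for others in E12.5 ysE. In bulk tissue, fewer cells of a type and less RNA per cell cannot be told apart.

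Among windows that lay to at least 80% inside 1 protein-coding gene, the share of members differed with that gene's expression. Genes were sorted into those at 1 RPKM or more in both E12.5 ysE and both liver libraries, in ysE with liver below 0.5, in liver with ysE below 0.5, and below 0.5 in all. Of 1005 windows in genes expressed in both tissues (677 genes), 676 (67.3%) were members. Of 52 windows in genes expressed in ysE alone (25 genes), 13 (25%) were members, of 342 in genes expressed in liver alone 19 (5.56%), and of 870 in silent genes 16 (1.84%). A further 638 windows lay in genes outside these 4 classes, with 132 members (20.7%), and of all 2907 such windows 856 (29.45%) were members. Windows of 1 gene share it, and no test was made. The shares were 72.2%, 22.7%, 6.21% and 2.12% without chromosomes 3, 4 and 6, and 70.2%, 24.2%, 5.81% and 2.81% with both E9.25 ysE libraries in place of the single E12.5 library. With 2 and 1 RPKM as limits they were 74.5%, 36.7%, 11.2% and 3.89%. These 3 alternatives were chosen after seeing the data.

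The same classes differed most in level in ysE, less in liver and least in EBs. Windows in genes expressed in both tissues had medians of 80.2% and 74.7% in ysE, those in ysE-only genes 75.3% and 66.2%, those in liver-only genes 68.3% and 59.7%, and those in silent genes 63.4% and 54.3%. In liver the medians were 82.3% and 84.0%, 76.8% and 79.5%, 79.2% and 80.6%, and 77.0% and 79.3% in the same order. There liver-only genes stood above ysE-only genes, the reverse of the order in ysE. In EBs all 4 classes lay between 88.9% and 89.6% in CxF and between 84.5% and 85.5% in FxC. The classes were set by ysE and liver RNA alone, so silent means silent in these tissues. EB expression was not used, and classes by EB expression were not tested.

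**Figure D3:**
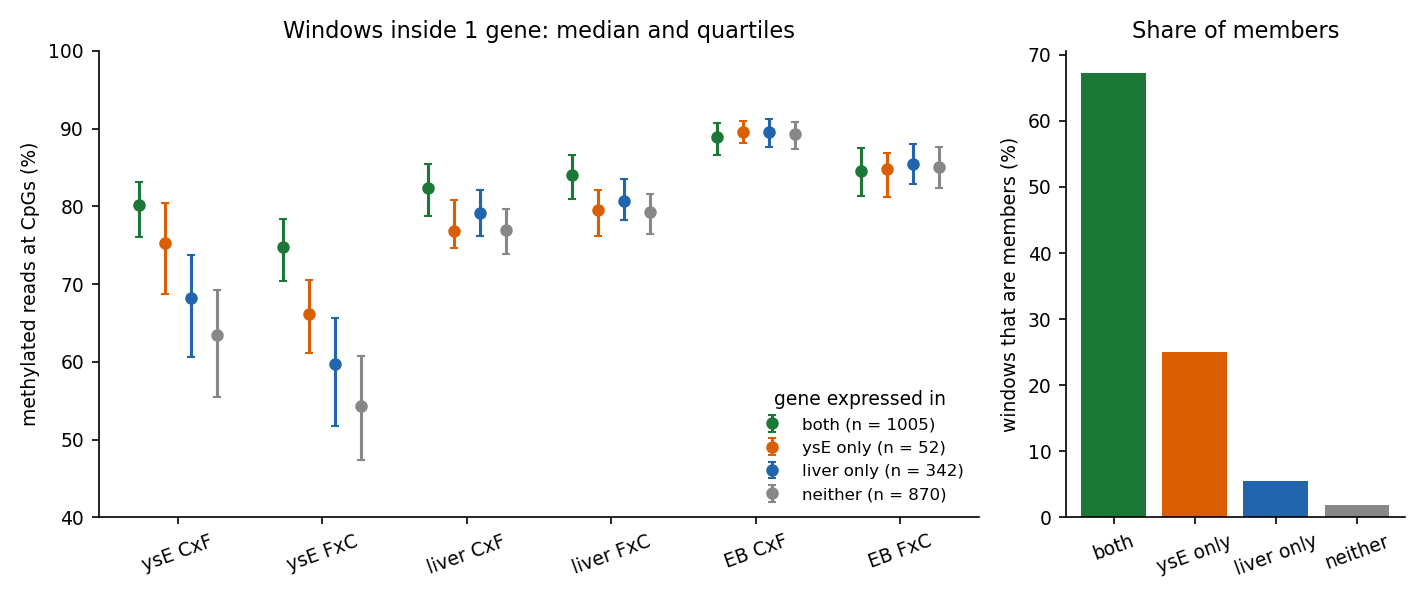
Left, median and quartiles of CpG methylation over windows inside 1 gene in each WGBS library, by whether the gene was expressed in E12.5 ysE and liver. Right, the percentage of these windows that were members, 67.3% for genes expressed in both, 25% for ysE only, 5.56% for liver only and 1.84% for neither.

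The order held among long genes and was weak among short ones. Among protein-coding genes over 100 kb, 66.85% of 733 expressed in both tissues had their midpoint in a member, 33.3% of 24 expressed in ysE alone, 7.19% of 167 expressed in liver alone and 4.31% of 371 silent ones. Among genes of up to 10 kb the shares were 12%, 10%, 9.49% and 7.28%, a narrower range. Genes outside these 4 classes had 14.06% of 576 there, above those expressed in both tissues, and 24.8% of 315 among genes over 100 kb. The genes with most member windows were Lpp (6 of 6 covered windows), Wwox (6 of 8), Foxp1, Pard3 and Ptprk (5 of 5 each) and Ptprg (5 of 6). Pard3 was at 13.95 RPKM in E12.5 ysE and Ptprk, a receptor phosphatase, at 13.2, while Wwox was at 2.02, Foxp1 at 1.535 and Ptprg, which is in none of the 4 classes, at 0.691.

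Several families of clustered genes had few or no member genes. Of 15907 genes in covered windows, 20% were member genes. None of 67 Krt and Krtap genes, 49 Pcdh genes, 25 Defb genes or 19 Hox genes was one, and 14 of 204 Olfr genes (6.86%) were. None of the Olfr or Defb genes reached 1 RPKM in E12.5 ysE. Nor did any of 27 Vmn genes, of which 5 (18.5%) were member genes. Of 66 Rpl and Rps genes 90.9% reached 1 RPKM and 7 (10.6%) were member genes, and of 14 Hist genes 64.3% did and none was. Zfp genes (49 of 267, 18.4%) and Slc transporter genes (50 of 266, 18.8%) were near the share of all genes, and 62.55% and 57.5% of them reached 1 RPKM. Members of 1 family often stand in 1 cluster, so they are not independent.

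Of the lists, imprinted genes had the highest share, with 13 of 27 in members (48.15%). The list is not complete, since the imprinted member genes Nnat and Rian are not on it. The 13 listed were Airn, Commd1, Grb10, Igf2r, Impact, Inpp5f, Kcnq1, Kcnq1ot1, Peg3, Ppp1r9a, Ube3a, Usp29 and Zrsr1, which include neighbours in the Igf2r, Kcnq1, Peg3 and Commd1 clusters. Genes of the DNA methylation machinery followed with 6 of 16 (37.5%), and genes of ysE and visceral endoderm with 7 of 28 (25%). No pluripotency gene of 9 and no mesoderm or vessel gene of 11 was a member gene, and 2 of 13 hepatic, 1 of 10 blood (Csf1r) and 1 of 8 germline genes (Sycp3) were.

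**Figure D4:**
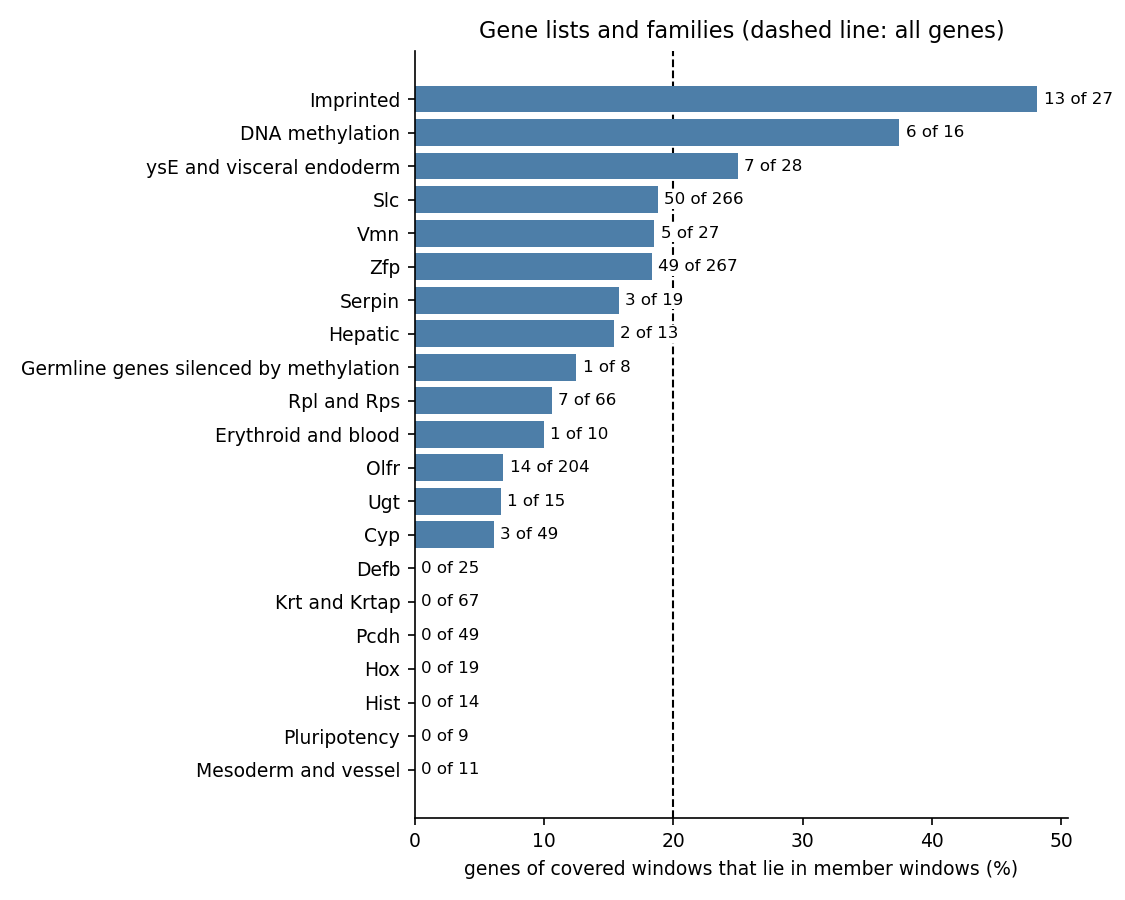
Percentage of the genes of each list or family in covered windows that lay in member windows, with counts beside the bars and the value for all genes (20%) dashed. Imprinted genes are highest at 13 of 27, and 7 groups, among them the Hox, Pcdh and Krt families, have none.

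The comparison of E12.5 ysE with liver asked how the genes in these windows differ between the tissues. Of 3010 member genes tested, 805 (26.7%) were higher in ysE and 634 (21.1%) lower (edgeR, FDR 5%), where 22.7% and 22.5% of all genes tested were called. The median log2 fold change was 0.02 over members and -0.23 over all genes. Of 2765 member genes off chromosomes 3, 4 and 6, the same edgeR fit called 1314 (47.5%), and of all 3010 it called 1439 (47.8%). Of all transcripts tested, these chromosomes included, 46.35% were called, where member genes count 1 transcript each. The shares were thus near those of the genome, and ysE had 1 library, so its spread is that of the other groups. In the same libraries the hepatic list summed to 807 RPKM in ysE and to 816 and 1499 in liver, and the blood list to 258 against 3222 and 5179. Of the markers, 7 of 15 blood genes reached 1 RPKM in ysE, with 1 at 0, and 15 in liver. Their part in these calls was not tested.

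The endoderm list, chosen with results of these data known, had 5 of its 7 member genes higher in ysE. Apoa1, the main protein of high density lipoprotein, was at 4059 RPKM in E12.5 ysE and at 145 and 278 in liver (log2 fold change 4.30 ± 0.79 (SE), edgeR adjusted p = 0.00196). Apoa4, its neighbour, was at 3298 RPKM in ysE and at 2.02 and 8.31 in liver (9.37 ± 1.41, edgeR adjusted p = 0.000715). The ysE level was above both liver libraries in each case. Cubn, which encodes cubilin, was at 183 RPKM against 0.435 and 0.55, and Amn, its partner amnionless, at 115 against 0.078 and 0.07. Lrp2, which works with both in endocytic uptake, was at 253 RPKM against 0.897 and 1.08 (8.04 ± 0.56, edgeR adjusted p = 3.44e-05). Cyba, a subunit of NADPH oxidase, at 463 against 7.72 and 9.75, and the secreted protein gene Spp2, at 1215 against 8.23 and 16.7, were also among the 10 member genes highest in E12.5 ysE. The others were Eef1a1, Rplp1, Hspa5, Lars2 and the small RNA genes Snord17 and Scarna10. Eef1a1 and Rplp1 have many near-identical copies and are uncertain, and the small RNA genes are short, so that few reads give a high RPKM.

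The remaining list and top genes went both ways. Of 7 tested endoderm genes 5 were higher in ysE and Sox17, a factor of early endoderm, was lower, at 0.022 RPKM against 0.176 and 0.28. Gata6 was at 1.45 RPKM against 1.962 and 1.63 and did not pass. Both hepatic genes, Ahsg at 152 RPKM against 46.9 and 115 and Itih4 at 12.7 against 6.65 and 12.95, did not pass either. Of 6 methylation genes 3 were lower in ysE: Dnmt1, the maintenance methyltransferase, at 51.2 RPKM against 96.2 and 114 (-0.999 ± 0.366, edgeR adjusted p = 0.0482), Dnmt3a at 11.7 against 24.8 and 19.3, and Mbd1 at 8.47 against 15.3 and 14.2. The Dnmt1 call is at the edge of the threshold. Of 13 imprinted genes Impact (79.5 RPKM against 7.26 and 8.36) and Inpp5f (34.1 against 4.24 and 4.63) were higher and Grb10, Commd1 and Kcnq1ot1 lower. The largest rises by the rule were Scarna3a, Clec2h, Mir1843b, Amn and Xkr9. Scarna3a and Mir1843b overlap. The largest falls, Pdia2, 1190002H23Rik, Lfng, Tagln3 and F2rl3, were all at 0 RPKM in the 1 ysE library, with 13.4 and 15.8 RPKM of Pdia2, a disulfide isomerase gene, in liver.

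Between E9.25 ysE and mesoderm, the only comparison with ysE made here within 1 protocol, member genes leaned to ysE. Of 3010 tested, 564 (18.7%) were higher in ysE and 267 (8.87%) lower, where 13.7% and 16.2% of all genes were called. The median log2 fold change was 0.20 over members and -0.05 over all genes. The blood list summed to 937 and 1122 RPKM in E9.25 ysE and to 47970 and 38140 in mesoderm, and the mesoderm and vessel list, with no member gene, to 58.6 and 86.8 against 1921 and 1732. Of 15 blood genes 8 and 10 reached 1 RPKM in ysE and 14 and 15 in mesoderm, with none at 0. The endoderm list summed to 16840 and 19100 RPKM in ysE and to 1887 and 3240 in mesoderm A and B, with 26 and 28 of its 33 genes at 1 RPKM or more in mesoderm, none at 0, and Afp at 700 and 1255. The part of these lists in the balance and in the folds was not tested. The 831 called member genes were 27.6% of those tested, against 30.6% of all transcripts tested. Fewer were called without any 1 of the 4 libraries, a fit that leaves 1 library in 1 tissue. Of 2765 member genes off chromosomes 3, 4 and 6 the main fit called 755 (27.3%).

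The largest rises were in Tmed6, Haao, Pla2g12b, Foxj1 and Vil1. Haao, an enzyme of tryptophan breakdown, was at 46.3 and 54.9 RPKM in E9.25 ysE and at 1.84 and 4.89 in mesoderm (4.21 ± 0.52, edgeR adjusted p = 0.000497). Vil1, which encodes the microvillus protein villin, was at 123 and 137 against 6.84 and 13.6 (3.98 ± 0.70, edgeR adjusted p = 0.00252). The rule that named these 5 genes asked for groups without overlap. Of the endoderm list Apoa1, Apoa4, Amn, Cubn and Lrp2 rose again, with Cubn at 336 and 429 RPKM against 61.1 and 102 (2.54 ± 0.64, edgeR adjusted p = 0.0148), and Sox17 fell. The largest falls were 1810011O10Rik, Saa1, Nnat, Popdc2 and Gm2061. Nnat, an imprinted gene of neural and endocrine cells, was at 3.45 and 5.20 RPKM in ysE and at 157 and 154 in mesoderm. Dnmt3a was higher in ysE (13.1 and 12.04 against 6.76 and 7.72) and Mbd1 lower.

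Between EBs and liver, whose liver libraries are those of the first comparison, 743 member genes (24.7%) were higher in EBs and 641 (21.3%) lower, where 24.8% and 20.2% of all genes were called. Days 10 and 15 of both clones formed 1 EB group of 4 libraries in this test. They came from 2 clones, and A minus B correlated by 0.899 between the days, so the 4 libraries were not independent. Both shares were near those of the genome. Fewer than the 1384 member genes of the main fit were called without liver B, which leaves 1 liver library. Of 2765 member genes off chromosomes 3, 4 and 6 the main fit called 1261 (45.6%), against 45.45% of all transcripts tested, these chromosomes included. With only the EB libraries of the liver protocol, a choice made after seeing the data, edgeR called 1627 member genes (55.1%, against 52.6% of all transcripts tested). The blood list summed to 3222 and 5179 RPKM in liver and to 21.1 to 147 in EBs, the hepatic list to 816 and 1499 against 7.76 to 31.8, and the pluripotency list to 2.85 and 1.20 against 219 to 566. At 1 RPKM or more were 15 of 15 blood genes in both liver libraries and 5 to 8 in EBs, and 2 and 1 of 10 pluripotency genes in liver, with 4 and 6 at 0, and 9 or 10 in EBs. Their part in these calls was not tested. Of the endoderm list Amn, Cubn, Lrp2, Gata6 and Sox17 were higher in EBs and Apoa1 lower. Sox17 was at 8.03, 5.37, 12.4 and 5.70 RPKM in EBs (day 10 A, day 10 B, day 15 A, day 15 B) and at 0.176 and 0.28 in liver (4.80 ± 0.50, edgeR adjusted p = 0.00011). Cubn was at 38.0, 9.64, 19.5 and 10.6 RPKM in EBs, above liver in all 4 libraries. The Sox17 level was above liver in all 4 as well. Dnmt3l, a cofactor of de novo methylation in germ cells and ES cells, was at 6.07, 30.7, 7.14 and 12.505 RPKM in EBs and at 0.066 and 0.008 in liver. Pou5f1, a pluripotency factor, was at 53.4, 76.8, 64.6 and 39.1 RPKM in the same EB libraries and at 0.033 and 0.01 in liver, and its part in the Dnmt3l difference was not tested. Of the methylation genes Dnmt1, Dnmt3a, Ehmt1, Mbd1 and Mbd2 were lower in EBs. Sycp3, a meiotic gene, was at 3.57, 19.13, 6.85 and 12.6 RPKM against 0.255 and 0.35. The largest falls were in serum protein genes and a nuclear receptor: Apoh, Ahsg, Saa4, Itih4 and Nr1i2, with Ahsg at no more than 0.237 RPKM in EBs. The largest rises were Scarna3a, Gm7325, 2210409E12Rik, F3 and Mir302a, of which all but F3 were at 0 in both liver libraries. Lars2, Eef1a1 and Rplp1 separated the EB libraries by clone and protocol: Lars2 was at 387 and 942 RPKM in A and at 9.23 and 13.4 in B, and Eef1a1 at 550 and 509 in A and 5259 and 6146 in B.

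**Figure D5:**
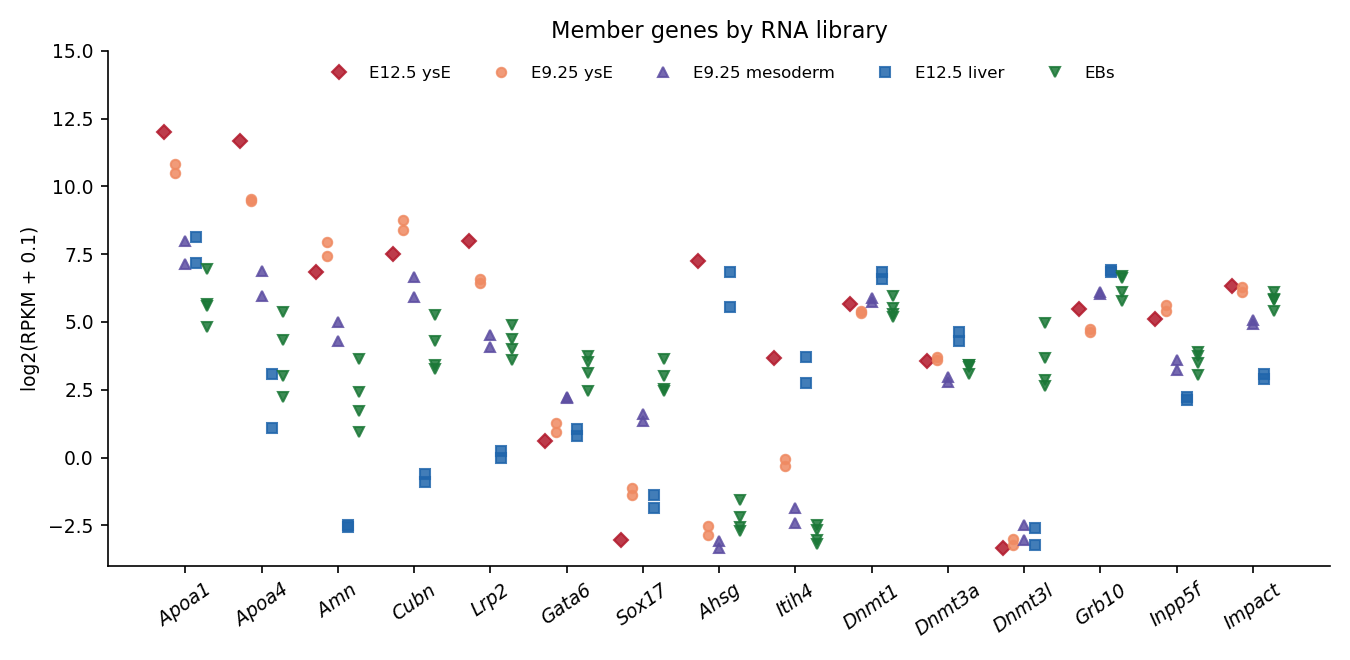
Levels of list genes that lie in member windows, as log2(RPKM + 0.1), 1 point per RNA library. Apoa1, Apoa4, Amn, Cubn and Lrp2 are highest in ysE of either age, Ahsg is high in E12.5 ysE and liver only, and Dnmt3l is highest in EBs.

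Reads of repeats outside genes were compared per window between E9.25 ysE and mesoderm. LINE, SINE, LTR and DNA elements were summed, and 1765 members were among 11000 windows tested. In ysE 358 members (20.3%) were higher and 126 (7.14%) lower (edgeR, FDR 5%), where 16.9% and 12.8% of all windows were called. The median log2 fold change was 0.20 over members and -0.20 over the other covered windows. In a fit of these tissues only, with the replicate letter as a block, edgeR called 284 members (245 higher, 39 lower), 16.4% against 14.5% of all windows. No split by direction over all windows is given for that fit, so its 245 and 39 have no background beside them. A window at chr1:181100001-181200000, with Cnih4, Nvl and Wdr26, held 14607 and 41254 repeat reads in ysE and 303 and 382 in mesoderm (6.22 ± 0.39, edgeR adjusted p = 0.00593). A window at chr8:107000001-107100000, with Vps4a, Cog8, Nip7 and Pdf, held 14209 and 28690 against 1092 and 1172 (4.16 ± 0.27, edgeR adjusted p = 0.00593). In the remaining one of the 3 largest rises, at chr2:166900001-167000000 beside Cse1l and Stau1, ysE A held 641 reads and ysE B 35726, so that call rests on ysE B. The largest falls were in windows with at most 67 reads, all 0 in ysE. Of 1604 members tested off chromosomes 3, 4 and 6, the main edgeR fit called 448 (27.9%), against 29.65% of all windows, these chromosomes included. Leaving out any 1 of the 4 libraries, which leaves 1 library in 1 tissue, left fewer members called than the 484 of the main fit.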

How the data were processed

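The member windows, gene lists and tests were chosen with earlier results of these data known. Per the labels and the study's methods, reads were aligned with GSNAP to mm10. The authors deposited, per CpG and strand, the percent of methylated reads and the count of reads, from which methylated reads were summed per window. They also deposited counts and RPKM values per RefSeq transcript and counts per repeat element outside genes. Deposited H3K4me3 peaks carry a score from MACS 1.4.2; positions only were used. Deposited exon counts were not used.

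Genes belonged to the window that held the midpoint of their body and were shown by the transcript of highest mean count. Named are the 10 member genes highest in E12.5 ysE, the 5 largest called changes per direction and comparison without overlap and at 1 RPKM or more, list genes past the threshold, and genes of the longest runs and of the highest and lowest windows. Counts were tested with edgeR 4.0.16 quasi-likelihood fits (Benjamini-Hochberg over all features, FDR 5%) in R 4.3.3, tested on simulated data. Transcript and repeat counts were filtered by filterByExpr and scaled by TMM. Methylated and unmethylated reads were not, and shared 1 library size per library, the mean of their totals. All 11 RNA libraries shared 1 estimate of spread. limma 3.58.1 and DESeq2 1.42.0 gave alternatives. Wilson intervals cover counting error only. Gene coordinates and promoters came from RefSeq tables of GRCm38.p6, which matched all but 161 of 30455 transcripts. Per the study's methods E9.25 ysE and mesoderm were layers separated by hand from yolk sacs of pooled litters, so they may share animals. Nothing states which libraries do, and nothing ties replicates to shared animals across the other tissues. P-values measure the spread between these libraries. Chromosomes 13 (at most 13 calls per library), 15 (no liver call), 19 and X gave no covered window and are not analysed here. One of the windows lowest in EBs is not reported here.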

Additional observations from a re-analysis of the deposited data

Results flagged for a closer look

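Chromosome 15 had no liver calls and so no covered window. In the ysE and EB libraries 680 of its windows held 200 reads in each, and 129 of them (18.97%) reached a ysE mean of 75%. Those had medians of 81.35% and 75.38% in ysE and 87.96% and 83.87% in EBs (CxF, FxC), in data outside the comparisons above.

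Of 87 named member genes tested over the 4 EB libraries, 3 had 1 library far from the others, and chance alone singles out about 1 in 20 groups. Dnmt3a was at 8.47 RPKM in day 10 B and at 10.1 to 10.5 in the rest. Nbeal1 was at 10.6 RPKM in day 10 B and at 15.9 to 16.4 in the rest. Pard3 was at 17.0 RPKM in day 10 A and at 12.1 to 12.6 in the rest.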

How the results depend on the processing

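The number of member windows was 5114 at a threshold of 70%, 612 at 80%, 1321 with each ysE library at 75% and 508 of 862 with at least 500 reads, and 1552 to 4297 on 1 ysE library. The liver median of members was 81.81% at a threshold of 70% and 84.96% at 80%. With at least 500 reads edgeR called only 0.116% of the 862 covered windows between EBs and liver. A count of 0 members in that fit thus does not set members apart. Members called between EBs and liver numbered 0 (edgeR, 79 at an unadjusted p under 0.05) of 508 with 500 reads, 26 at the 80% threshold (4.25%, against 13.2% of all windows), 0 with the cross as a replicate block (163 at an unadjusted p under 0.05), and 0 to 517 without 1 library. Member genes called for E12.5 ysE against liver numbered 912 with whole gene bodies in members (46.96%, against 46.35% of all transcripts tested) and 329 at 80% (48.8%). For E9.25 ysE against mesoderm they numbered 1627 in a fit of these groups only (56.7%, against 60.3% of all genes), 1524 with the replicate letter as a replicate block (53.1% against 56.3%), 485 with whole bodies (24.97%, against 30.6% of all genes), 203 at 80% (30.1%), and 387 to 474 without 1 library. For EBs against liver they numbered 863 with whole bodies (44.4%, against 45.45% of all genes), 306 at 80% (45.4%), 823 to 1477 without 1 library (823 without liver B, 947 without liver A) and 1281 with the replicate block (44.5% against 45.7%). That block was added to a fit of EBs and liver only, which without it called 1056 (36.7%, against 37.6% of all transcripts tested). The block fit of repeat reads also left out the EB libraries, so the parts of these 2 changes cannot be told apart. It called 284 members (16.4%, against 14.5% of all windows). Repeat reads of the main fit put the members' share below that of all windows (27.4% against 29.65%). They gave 86 at 80% (22.45% against 29.65%) and 65 to 256 without 1 library (65 without mesoderm A). For EBs against liver, the 1477 member genes called without EB day 15 A were 49.05% of those tested, against 48.5% of all transcripts tested. Fewer windows enter at 80% and with 500 reads. The other causes were not tested. A minus B correlated by -0.0803 between E9.25 ysE and mesoderm, by 0.214 (day 10) and 0.161 (day 15) between EBs and liver, and by 0.899 between EB days, where the letters are clones and protocols. CxF minus FxC correlated by -0.0581 between liver and EBs over members. Nothing states that letters pair tissues. With only EB libraries of the liver protocol, chosen after seeing the data, Eef1a1 (-1.29) and Mir686 (-1.71) turned to lower in EBs. Of 3138 recomputed values of named genes, 2817 kept direction and side of the threshold, 180 lost it, 139 gained it and 2 reversed.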
